A study of Danio rerio with 12 samples.

Results

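The mitochondrial respiratory chain is made of 5 protein complexes, and this report describes the RNA of their nuclear-encoded subunits in zebrafish (*Danio rerio*) larvae without a working *mia40a* gene. The members are the Ensembl genes whose symbol, in the study's supplementary gene and protein tables, begins with the stem of a subunit of complexes I to V. *cox6b1* and *cox6b2* were left out. The rule found 56 genes among the 31953 in the 5 days post fertilization (dpf) data, of which 31 belong to complex I, 2 to complex II, 4 to complex III, 11 to complex IV and 8 to complex V. All 56 were above the minimum mean value at 5 dpf, and 55 of them were among the 20963 genes at 8 dpf, where *ndufa13* was not listed. The symbols of 33 members come from tables that list genes whether or not they changed, those of 22 only from tables of proteins that changed in these mutants, and that of *cox6a2* only from the study's calls on RNA at 8 dpf.

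Poly(A) RNA was sequenced from pools of 5 whole larvae. The larvae came from a cross of heterozygous carriers of the *waw1* allele of *mia40a* in the AB line, were genotyped at 3 dpf, and were either homozygous for the allele (*mia40a* waw1/waw1, called Mut) or wild type (WT). There were 3 Mut and 3 WT pools at 5 dpf and 3 Mut and 3 WT pools at 8 dpf, 12 libraries in all. The 8 dpf larvae, Mut and WT alike, had been fed from 5 dpf, so age and feeding cannot be told apart. The study holds that what is seen in mutants after 5 dpf probably follows from starvation. It centred its analysis on 5 dpf because starvation may bias the 8 dpf mutants. Genotype and nutritional state thus cannot be told apart at 8 dpf. The pools of an experiment are described as coming from the same clutch, so the p-values measure the spread among pools and not among clutches. By the study's account, collection and processing of the 8 dpf samples took place at different times, with a batch effect. Whether these times drew on separate clutches is not known here, so batch, collection and clutch cannot be told apart at 8 dpf. Whole larvae hold every tissue, and fewer cells of a type and less RNA per cell cannot be told apart in these values.

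Complexes I to IV pass electrons from NADH and succinate to oxygen, and complexes I, III and IV pump protons across the inner mitochondrial membrane while they do so. Complex V, the ATP synthase, lets the protons return and makes ATP. All but a few of the subunits are encoded in the nucleus, made in the cytosol and imported. Mia40 is the oxidoreductase of the intermembrane space that traps small cysteine-rich proteins there by giving them disulphide bonds. Several subunits of complexes I and IV with twin cysteine motifs are known as its substrates in mammals. Tissues that use much ATP, such as skeletal muscle and heart, are rich in these complexes.

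The values are read counts per gene that the authors scaled between libraries and rounded, called normalized values. Levels are compared for the same gene within an age, since the ages were normalized separately and no gene lengths were used. Fold changes are Mut over WT on the log2(value + 1) scale, with standard errors and Benjamini-Hochberg adjusted p values over all genes of the age, from limma. A gene "rose" or "fell" where its adjusted p was under 0.05. The normalized values of a library summed to between 16997847 and 18177809 in Mut and between 17213798 and 17872334 in WT at 5 dpf, and to between 24185532 and 25003708 in Mut and between 22595423 and 25417541 in WT at 8 dpf. The targeted gene, listed as *chchd4a* (ENSDARG00000033376), had values of 264, 262 and 261 in Mut and 82, 91 and 92 in WT at 5 dpf, a log2 fold change of 1.56. At 8 dpf its values were 383, 413 and 443 in Mut and 488, 394 and 397 in WT, which overlap. A per-gene value does not show whether the RNA carries the mutation.

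At 5 dpf the median log2 fold change of each of the 5 complexes was positive and small, from 0.28 in complex V to 0.42 in complex III. Of the 56 members, 28 rose and 1, *COX5B*, fell. Over all 22521 genes tested, 5.99% passed, 3.82% higher and 2.17% lower in Mut. The median log2 fold change of the members was 0.29, a 1.22-fold difference, while that of all genes was -0.00. Positive log2 fold changes were found for 55 of the 56 members, and 52 of the 56 lay between 0.1 and 0.5. None reached the 0.9 on the log2 scale that the study used as its threshold beside the adjusted p. Over all genes, 1.15% met both that threshold and an adjusted p under 0.05. Every Mut library was above every WT library for 43 members and below for 1, against 12.9% and 11.7% of all genes. Among the 1604 genes with a mean level at or above that of the median member, 126 rose and 90 fell, with a median log2 fold change of 0.00. In each direction this is a larger share than over all genes. The set was chosen after the values were seen.

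The members named by tables that list genes whether or not they changed gave 19 of 33 that rose and 1 that fell, with a median log2 fold change of 0.32. Those named only through changed proteins gave 9 of 22 that rose and none that fell at the adjusted threshold, with a median of 0.28. These proteins were picked from larvae of the same genotypes, so their symbols do not come from an independent choice. By complex, 15 of 31 rose in complex I (median log2 fold change 0.29), 1 of 2 in complex II (0.31), 3 of 4 in complex III (0.42), 7 of 11 in complex IV (0.31), where the 1 that fell also lies, and 2 of 8 in complex V (0.28). Differences between complexes were not tested.

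**Figure D1:**
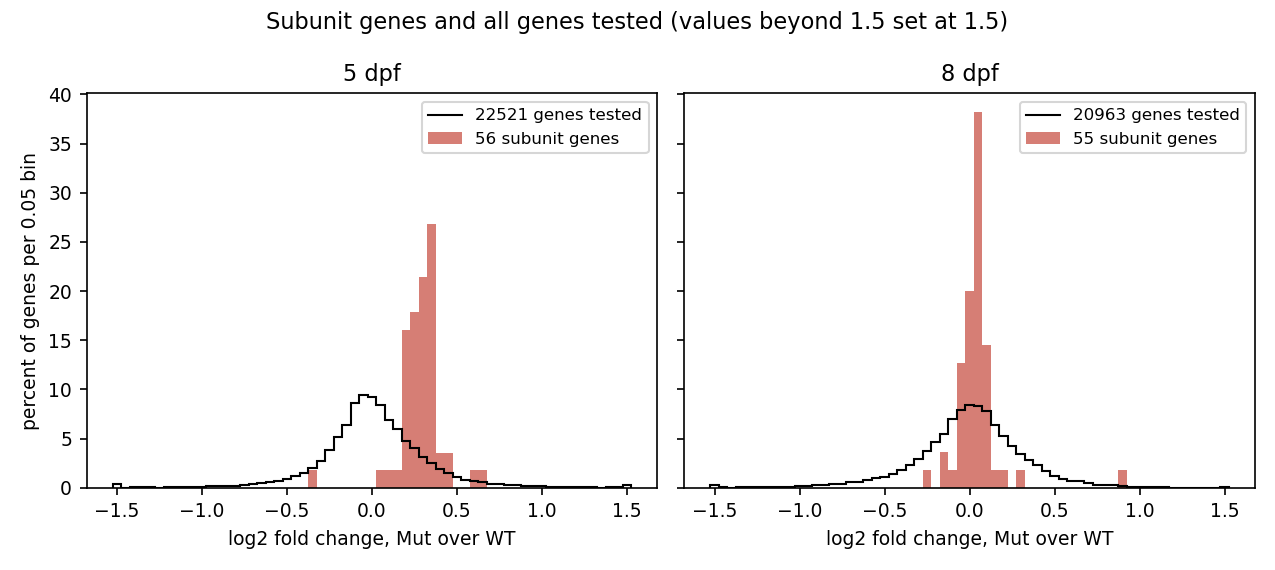
Distribution of log2 fold changes (Mut over WT, horizontal axis) of the subunit genes (filled bars) and of all genes tested (black line) at 5 and 8 dpf, as the percent of genes in bins of 0.05. At 5 dpf the bars stand to the right of the centre of all genes, around a median of 0.29, with *COX5B* alone on the left, and at 8 dpf they lie around a median of 0.03.

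The count of calls depended on which libraries entered the fit, while the size of the difference moved little. With a library left out, 2 members rose without Mut3, 3 without Mut2, 7 without WT2, 13 without WT3, 17 without WT1 and 32 without Mut1. Over all genes, 861 rose with all libraries, 337 without Mut3, 284 without Mut2, 572 without WT2 and 601 without WT1. Without WT3 the count over all genes went up to 886 while that of the members went down. Without Mut1 it went down to 706 while that of the members went up. Across these settings the median log2 fold change of the members stayed between 0.25 and 0.35, and 54 or 55 of the 56 were positive. When limma shrank all variances toward a single value in place of a trend with expression level, 2 members rose, *uqcrb* and *cox5b2*, and 223 of all genes. With all libraries, 49 members had a positive fold change at an unadjusted p under 0.05, which 20.1% of all genes met in either direction.

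The Mut libraries did not stand equally high. Averaged over all members, log2(value + 1) exceeded the WT mean by 0.18 in Mut1, 0.39 in Mut2 and 0.30 in Mut3, and the WT libraries lay at 0.06, -0.01 and -0.04. Mut2 was the highest Mut library for 51 of the 56 members and Mut1 the lowest for 52, so the members moved together from pool to pool. The same order held for the totals of the libraries, in which Mut1 had the lowest sum and Mut2 the highest. With every library scaled to the same total, 31 members rose and the median was 0.27, close to the 0.29 without that scaling. Complex III was the highest complex in each of the Mut libraries, at 0.32, 0.50 and 0.40, with WT libraries at 0.05, 0.01 and -0.06. In complex I the means were 0.17, 0.39 and 0.28 in Mut and 0.06, -0.02 and -0.04 in WT. In complex V they were 0.17, 0.40 and 0.28 in Mut and 0.06, -0.00 and -0.05 in WT, and no Mut mean lay within the WT range in any complex.

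**Figure D2:**
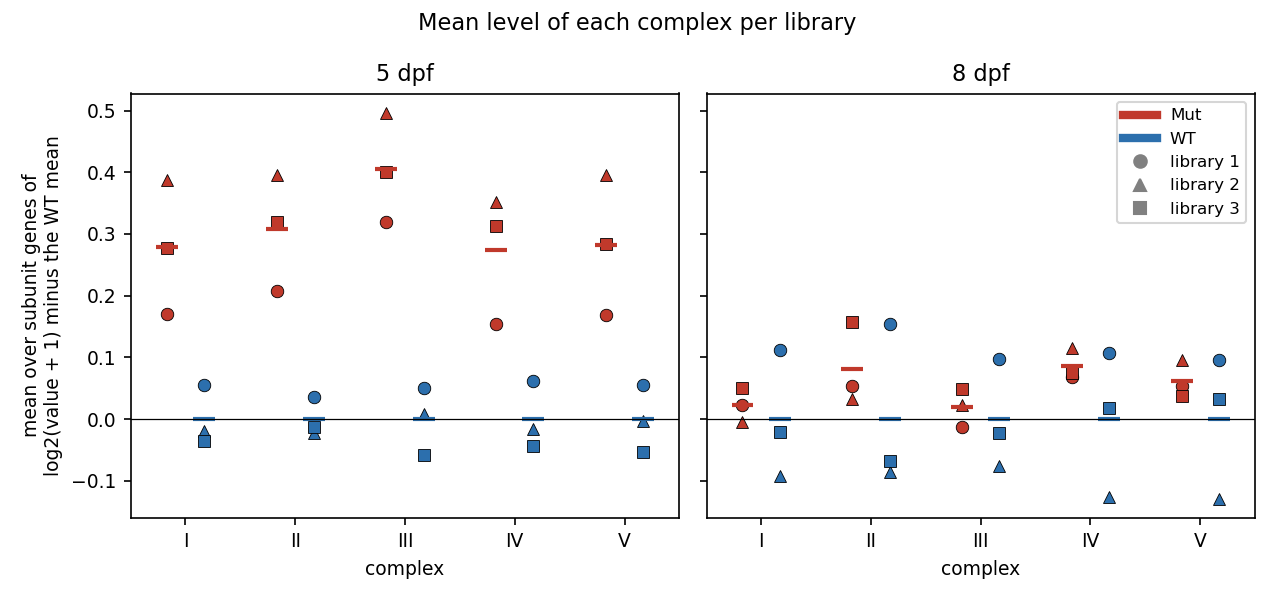
Mean over the subunit genes of each complex of log2(value + 1) minus the WT mean (vertical axis) in every library, with Mut left of WT in each complex. Symbols mark the library number and short lines the group mean. At 5 dpf all Mut points lie above all WT points, with Mut2 highest and Mut1 lowest, and at 8 dpf the groups overlap in every complex, with WT1 high and WT2 low.

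Markers of tissues also differed between the genotypes at 5 dpf, and their part in the members' difference was not tested. Of 9 fast skeletal muscle genes none passed the test in either direction, with a median log2 fold change of 0.20, and their summed values were 593081 to 728904 in Mut and 550701 to 641407 in WT, which overlap. The 5 heart genes had a median of 0.31 and the 2 slow muscle genes one of 0.10, and none of these passed. All of the fast muscle, heart and slow muscle genes had positive log2 fold changes. The heart sums were 3070 to 3685 in Mut and 2530 to 3056 in WT, which do not overlap. Slow muscle sums were 19905 to 23163 in Mut and 19239 to 20702 in WT, which overlap. Of 11 exocrine pancreas genes 10 fell, with sums of 59448 to 75116 in Mut and 118161 to 162821 in WT. Of 4 retina genes 2 fell, with sums of 88403 to 96937 in Mut and 114293 to 127336 in WT. In liver 2 of 8 genes fell and in intestine 1 of 4, and none rose. Log2 fold changes were positive for 2 liver genes and 1 intestine gene. The liver sums were 54140 to 61970 in Mut and 53945 to 76099 in WT. The intestine sums were 20259 to 22486 in Mut and 18765 to 30569 in WT, and both lists overlap. No marker was at 0 in a group.

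Complex I takes electrons from NADH through a chain of iron-sulphur clusters to ubiquinone. Its core subunits carry out this transfer, and several of those encoded in the nucleus rose at 5 dpf. *ndufv1*, which binds NADH and the flavin, had values of 4209, 4900 and 4405 in Mut and 3546, 3461 and 3722 in WT, a log2 fold change of 0.33 (SE 0.07, adjusted p = 0.0294). *ndufv2*, its iron-sulphur partner at the tip of the peripheral arm, had values of 1463, 1746 and 1624 in Mut and 1262, 1243 and 1286 in WT (0.35, SE 0.08, adjusted p = 0.0278). *ndufs1*, which carries several of the clusters of that arm, had values of 4165, 4725 and 4473 in Mut and 3525, 3526 and 3595 in WT (0.33, SE 0.07, adjusted p = 0.0213). In each of the 3, the lowest Mut library was above the highest WT library by more than the WT libraries differed among themselves, and Mut2 was the highest library.

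Other core subunits lie nearer to the ubiquinone site. *ndufs7*, which holds the last cluster before ubiquinone, had values of 1752, 1975 and 1830 in Mut and 1609, 1475 and 1426 in WT, a log2 fold change of 0.30 (SE 0.08, adjusted p = 0.0449). These values did not overlap between the groups. *ndufs8a*, another cluster subunit, had a log2 fold change of 0.29 with an adjusted p of 0.059, and *ndufs3*, a structural core subunit, one of 0.22 with an adjusted p of 0.195. Over the 24 accessory subunits the median was 0.27, and 10 of them rose.

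Accessory subunits surround the core and are needed for assembly and stability. Among those on the matrix side, *ndufa10*, which has the fold of a nucleoside kinase, had the lowest adjusted p of complex I. Its values were 2261, 2454 and 2313 in Mut and 1856, 1762 and 1810 in WT, a log2 fold change of 0.37 (SE 0.07, adjusted p = 0.00898). *ndufa2*, a small thioredoxin-like subunit of the arm that binds NADH, had values of 893, 1054 and 988 in Mut and 785, 762 and 746 in WT (0.35, SE 0.08, adjusted p = 0.0287). *ndufa6*, which binds a mitochondrial acyl carrier protein, had values of 1531, 1801 and 1620 in Mut and 1344, 1359 and 1259 in WT (0.32, SE 0.08, adjusted p = 0.0397). The WT libraries of *ndufa10* were close together, with its Mut libraries well above them. *ndufa9a*, a subunit beside the ubiquinone site, had values of 1898, 2110 and 2030 in Mut and 1620, 1676 and 1654 in WT (0.29, SE 0.07, adjusted p = 0.0341). *ndufa12*, a small subunit of the peripheral arm, had the highest log2 fold change in complex I, and its values of 192, 196 and 188 in Mut and 118, 156 and 145 in WT gave 0.47, SE 0.13, adjusted p = 0.059. Its WT libraries were spread widely, with WT1 low, and it did not pass.

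In the membrane arm, *ndufa13*, also known in mammals as GRIM-19, had values of 832, 967 and 857 in Mut and 737, 644 and 667 in WT (0.37, SE 0.09, adjusted p = 0.0316). *ndufa11*, a membrane-spanning subunit, had values of 1286, 1538 and 1370 in Mut and 1131, 1168 and 1057 in WT and an adjusted p just under the threshold, which rounds to it (0.32, SE 0.08, adjusted p = 0.05). *ndufb5*, a single-span subunit, had values of 1832, 2092 and 1932 in Mut and 1689, 1508 and 1486 in WT (0.32, SE 0.08, adjusted p = 0.04). The groups did not overlap for any of the 3. *ndufa1*, needed in mammals to start membrane arm assembly, had the lowest log2 fold change of complex I, with values of 1322, 1525 and 1454 in Mut and 1554, 1267 and 1329 in WT (0.05, SE 0.09, adjusted p = 0.796). Its WT1 library was the highest of the 6, so the groups overlapped. The accessory subunits *ndufa4l*, *ndufa5*, *ndufa7*, *ndufb3*, *ndufb4*, *ndufb6*, *ndufb7*, *ndufb8*, *ndufb9*, *ndufc2*, *ndufs4* and *ndufs6* had log2 fold changes between 0.12 (*ndufa7*) and 0.28 (*ndufb4*), and none of these passed the test.

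Of the complex I subunits with twin cysteine motifs, which are substrates of Mia40 in mammals, 3 of 4 rose at 5 dpf. *ndufs5* had values of 1412, 1673 and 1555 in Mut and 1215, 1154 and 1230 in WT (0.36, SE 0.08, adjusted p = 0.0233). *ndufa8* had values of 1540, 1741 and 1636 in Mut and 1402, 1246 and 1280 in WT (0.32, SE 0.08, adjusted p = 0.0343). *ndufb10* had values of 1260, 1473 and 1314 in Mut and 1101, 1049 and 1001 in WT (0.36, SE 0.08, adjusted p = 0.0266). No library of these genes in Mut lay within the WT range. *ndufb7* had values of 1523, 1768 and 1606 in Mut and 1477, 1427 and 1321 in WT, which did not overlap either, and did not pass (0.21, SE 0.08, adjusted p = 0.159). The median log2 fold change of the 4 was 0.34, against 0.29 over the whole complex, and this difference was not tested.

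Complex II, the succinate dehydrogenase of the citric acid cycle, is wholly nuclear-encoded and pumps no protons. *sdhb*, its iron-sulphur subunit, had values of 2228, 2472 and 2474 in Mut and 1797, 1913 and 1879 in WT, a log2 fold change of 0.36 (SE 0.07, adjusted p = 0.0148). *sdhc*, a membrane anchor, had values of 1471, 1724 and 1550 in Mut and 1437, 1246 and 1287 in WT (0.26, SE 0.08, adjusted p = 0.111). Both had every Mut library above every WT library, and the gap of *sdhb* was wider than the span of its WT libraries. *SDHA*, the flavoprotein that oxidises succinate, was found only through a reference table of gene symbols and had values of 4851, 4815 and 4753 in Mut and 3842, 3828 and 3642 in WT (0.35, adjusted p = 0.00944 from limma).

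Complex III passes electrons from ubiquinol to cytochrome c, and its members had the highest median. *uqcrc2b*, a core protein that faces the matrix, had the lowest adjusted p of all members. Its values were 3188, 3480 and 3231 in Mut and 2413, 2474 and 2358 in WT, a log2 fold change of 0.45 (SE 0.07, adjusted p = 0.00361). *uqcrb*, a small subunit that helps to hold the ubiquinone site, had values of 336, 366 and 361 in Mut and 234, 251 and 222 in WT (0.59, SE 0.09, adjusted p = 0.00525). *uqcrfs1*, the Rieske iron-sulphur protein that is inserted late in assembly, had values of 3460, 3933 and 3651 in Mut and 3022, 2696 and 2739 in WT (0.38, SE 0.08, adjusted p = 0.0156). The Mut libraries of *uqcrb* and *uqcrc2b* were close together, and these 2 genes remained called without Mut2 and without Mut3. *uqcrq*, another small subunit, had values of 1922, 2325 and 2097 in Mut and 1975, 1796 and 1740 in WT, in which WT1 was above Mut1 (0.20, SE 0.09, adjusted p = 0.22). The 4 further complex III genes found through the reference table, *UQCRC1*, *uqcrc2a*, *UQCRH* and *UQCR10*, all rose, with log2 fold changes of 0.33 to 0.42.

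Complex IV, cytochrome c oxidase, gives the electrons to oxygen, and it held the members that stood furthest apart. *cox5b2*, a gene for the zinc-binding subunit 5B, had the highest log2 fold change of all members at 5 dpf. Its values were 127, 122 and 139 in Mut and 79, 81 and 83 in WT, a log2 fold change of 0.67 (SE 0.13, adjusted p = 0.0131). *COX5B* (ENSDARG00000011208), named as a gene of the same subunit, was the only member that fell, with values of 523, 511 and 538 in Mut and 721, 646 and 640 in WT (-0.35, SE 0.08, adjusted p = 0.0285). The groups overlapped for neither gene. The ratio of the *cox5b2* value to the *COX5B* value was 0.243, 0.239 and 0.258 in Mut and 0.110, 0.125 and 0.130 in WT. The call on *COX5B* was lost without Mut1, Mut2, Mut3 or WT1, with log2 fold changes from -0.37 to -0.30, and that on *cox5b2* was lost without Mut3, at 0.61. The reference table gives no symbol for ENSDARG00000011208 and names *cox5b2* as COX5B, so which copy each of them is was not settled. It also gives the name COX5B to a further gene (ENSDARG00000015978), not among the members. That gene had values of 4934, 5671 and 5527 in Mut and 4545, 4484 and 4544 in WT (0.25, adjusted p = 0.0749 from limma). Reads that aligned to several places were not counted, so the values of similar gene copies are uncertain.

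**Figure D3:**
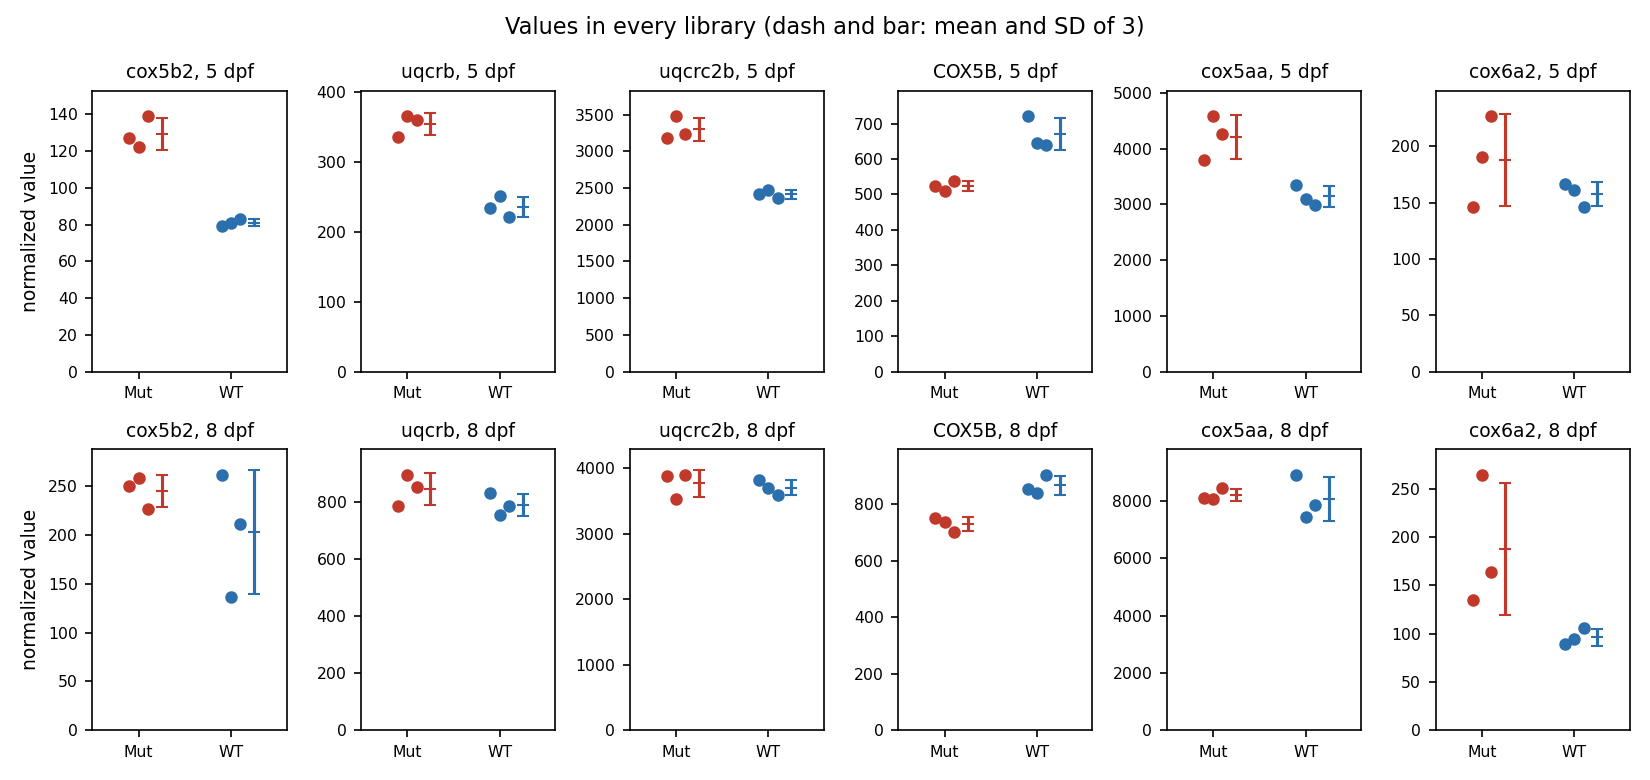
Normalized values (vertical axis, from 0) of 6 subunit genes in every library, Mut left of WT, at 5 dpf (top) and 8 dpf (bottom), with the mean and SD of the 3 libraries beside the points. *cox5b2*, *uqcrb*, *uqcrc2b* and *cox5aa* lie higher in Mut at 5 dpf and overlap at 8 dpf, *COX5B* lies lower in Mut at both ages, and *cox6a2* is apart at 8 dpf, with Mut2 at 265.

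The remaining complex IV genes that rose are structural subunits around the mitochondrially encoded core. *cox5aa*, a copy of subunit 5A, had values of 3795, 4584 and 4262 in Mut and 3346, 3105 and 2982 in WT (0.42, SE 0.08, adjusted p = 0.0165). *cox5ab*, the other copy, had values of 1670, 2054 and 1843 in Mut and 1550, 1431 and 1446 in WT (0.33, SE 0.08, adjusted p = 0.0497). The ratio of the *cox5aa* value to the *cox5ab* value was 2.27, 2.23 and 2.31 in Mut and 2.16, 2.17 and 2.06 in WT. The difference in balance was small, with every Mut ratio above every WT ratio. *cox6c* had values of 3297, 3819 and 3461 in Mut and 2881, 2906 and 2849 in WT (0.29, SE 0.07, adjusted p = 0.0415). *cox7b* had values of 3966, 4440 and 4201 in Mut and 3504, 3405 and 3279 in WT (0.31, SE 0.07, adjusted p = 0.0283). *cox7a2a*, the subunit 7A form found in many tissues, had values of 1506, 1860 and 1682 in Mut and 1380, 1360 and 1203 in WT (0.35, SE 0.09, adjusted p = 0.0494). None of these genes had overlapping groups, and *cox7a2a* and *cox5ab* were just inside the threshold.

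*cox7a3*, which the reference table names as COX7A2L, a factor that joins complexes III and IV in mammals, had values of 1057, 1205 and 1129 in Mut and 965, 843 and 897 in WT (0.33, SE 0.08, adjusted p = 0.0418). *cox4i1*, the largest nuclear-encoded subunit and an early one in assembly, had values of 7297, 8479 and 7807 in Mut and 7504, 6716 and 6570 in WT, which overlapped (0.18, SE 0.08, adjusted p = 0.251). *cox6a1* had a log2 fold change of 0.26 with an adjusted p of 0.0698. *cox6a2*, named as the form of subunit 6A that mammals use in heart and skeletal muscle, had values of 146, 191 and 227 in Mut and 167, 161 and 146 in WT (0.23, SE 0.16, adjusted p = 0.46), and its Mut libraries were spread widely enough to overlap those of WT. The reference table gives the same identifier as COX6A1, so that which form it is was not settled. None of the 7 further complex IV genes of the reference table passed, with a median log2 fold change of 0.14.

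Complex V had the fewest calls for its size among the members, although all 8 of its log2 fold changes were positive. *atp5f1*, the b subunit of the stator stalk, had values of 7069, 8092 and 7630 in Mut and 6114, 5891 and 5874 in WT, a log2 fold change of 0.35 (SE 0.07, adjusted p = 0.0195). *atp5a1*, the alpha subunit of the catalytic head, had values of 20392, 23464 and 22377 in Mut and 17367, 17845 and 17529 in WT (0.33, SE 0.08, adjusted p = 0.0396). Neither had overlapping groups. *atp5h*, *atp5j*, *atp5l* and *atp5o*, which belong to the stalk and the membrane part, had log2 fold changes of 0.26 to 0.28 with adjusted p from 0.0656 to 0.0933, and their groups did not overlap either. *atp5g3b*, a gene of the c ring that turns in the membrane, was the lowest, with values of 9449, 11391 and 10389 in Mut and 9929, 8872 and 8805 in WT (0.18, SE 0.09, adjusted p = 0.298). *atp5s*, whose mammalian counterpart is a coupling or assembly factor and not a subunit of the enzyme, had a log2 fold change of 0.33 with an adjusted p of 0.208.

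The reference table added 13 ATP synthase genes, 7 of which rose. *atp5mc1*, another gene of the c ring, had values of 6159, 6923 and 6171 in Mut and 3650, 3982 and 3988 in WT (0.73, adjusted p = 0.000484). *atp5if1a*, the inhibitor that binds the enzyme when the membrane potential falls, had values of 1098, 1295 and 1185 in Mut and 818, 778 and 755 in WT (0.60, adjusted p = 0.00199). Both lay above every member of complex V in log2 fold change. Over all 36 further subunit genes tested at 5 dpf, 14 rose and none fell at the adjusted threshold, with a median of 0.29, the same as that of the members.

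**Figure D4:**
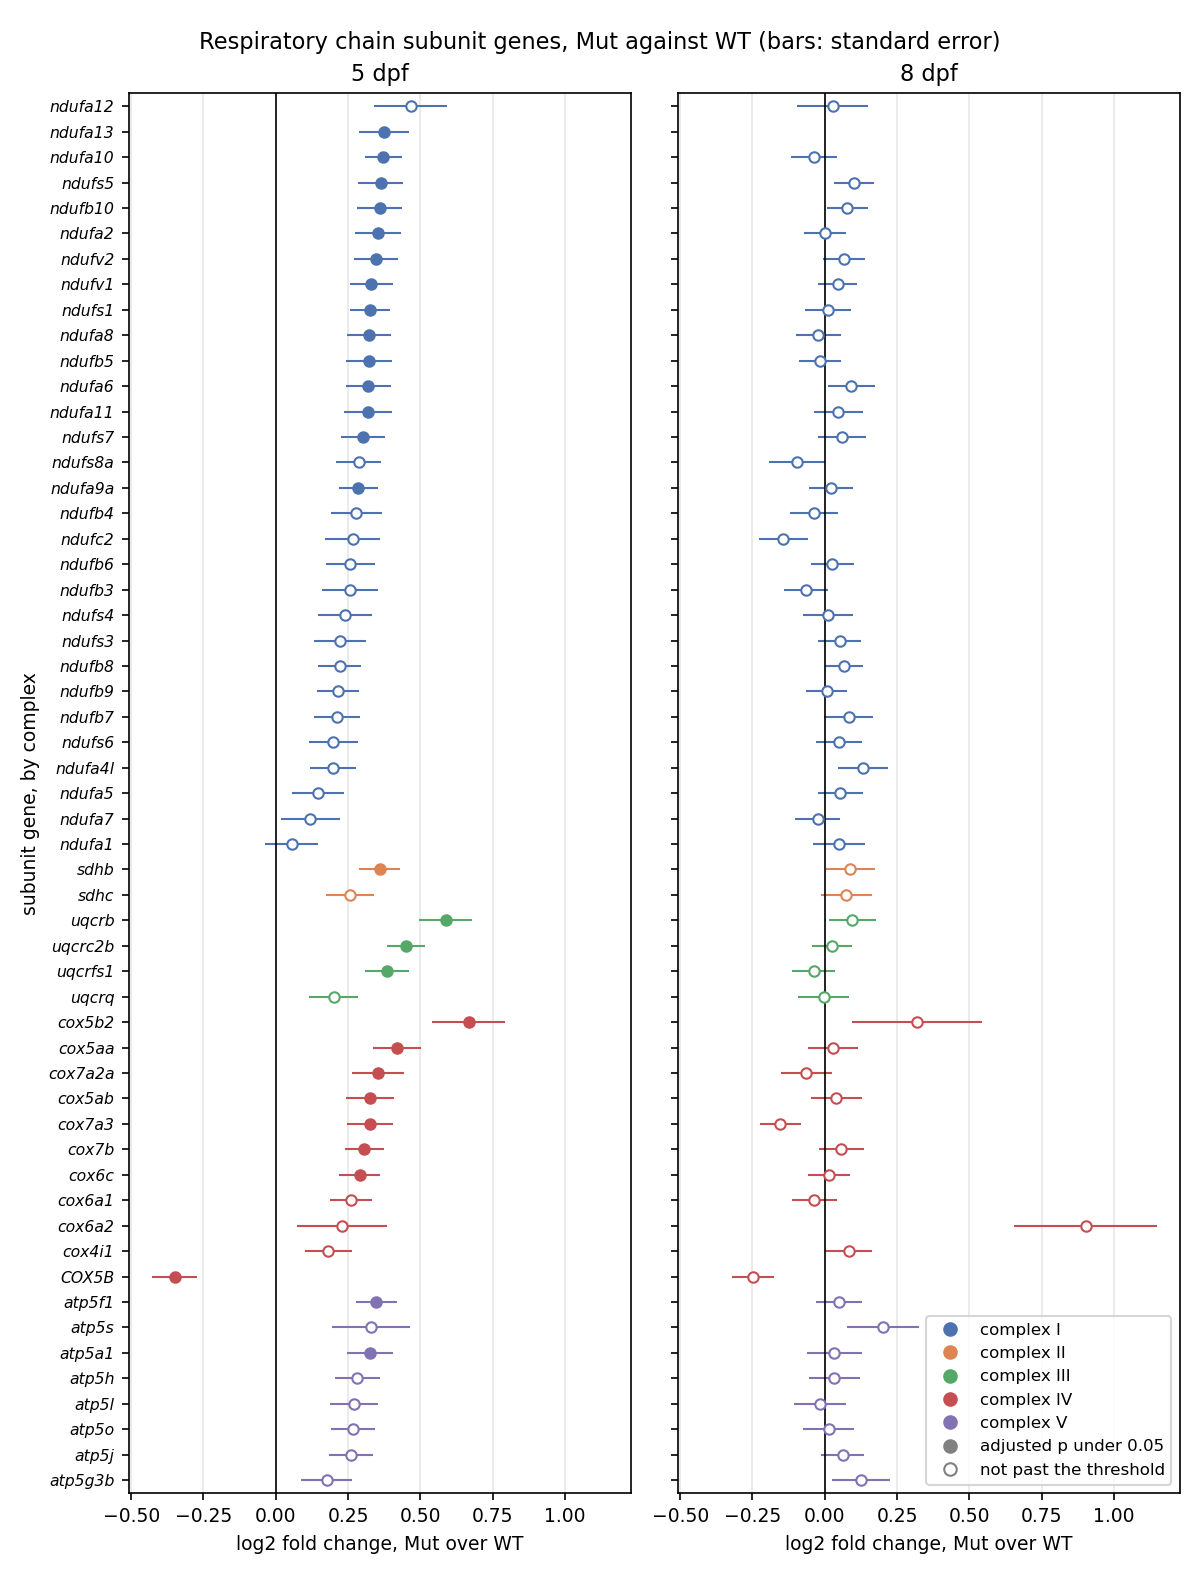
Log2 fold change, Mut over WT, of the subunit genes with its standard error (horizontal axis) at 5 dpf (left) and 8 dpf (right), ordered by complex and by the 5 dpf value, with filled points for an adjusted p under 0.05. At 5 dpf the filled points lie right of 0 except that of *COX5B*, and at 8 dpf no point is filled.

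Of 52 genes known for building the complexes and matched by symbol, 14 rose at 5 dpf and none fell at the adjusted threshold, with a median log2 fold change of 0.32. The list was chosen with results of these data known. *higd1a*, a small inner membrane protein that binds complex IV, had values of 946, 1234 and 1050 in Mut and 573, 533 and 628 in WT (0.89, adjusted p = 0.00103). *cox17*, the twin-cysteine copper carrier of complex IV, had values of 695, 822 and 770 in Mut and 492, 420 and 502 in WT (0.69, adjusted p = 0.0027). *lrpprc*, which stabilises mitochondrial messenger RNA, had values of 2088, 2096 and 2057 in Mut and 1425, 1429 and 1500 in WT (0.52, adjusted p = 0.00116). All 3 had Mut libraries well above WT. *taco1*, *coa3*, *cmc2*, *cox10*, *cox11*, *cox15* and *coa6*, also of complex IV, rose by 0.42 to 0.84 on the log2 scale. *bcs1l*, which inserts the Rieske protein into complex III, rose by 0.43, and *ndufaf6*, *tmem126a* and *ndufab1b*, needed for complex I, by 0.34 to 0.51.

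At 8 dpf most members of all complexes lay close to WT, and none passed at an adjusted p under 0.05 in limma. Over all 20963 genes, 4.66% did, 1.34% higher and 3.32% lower in Mut, and 0.906% also had a log2 fold change of at least 0.9. The median log2 fold change of the 55 members was 0.03, close to the 0.01 of all genes, and 50 of the 55 lay between -0.15 and 0.15. The medians were 0.03 in complex I, 0.08 in complex II, 0.01 in complex III, 0.03 in complex IV and 0.04 in complex V. At an unadjusted p under 0.05, which 20.8% of all genes met, *cox6a2* was higher and *COX5B* lower in Mut, and no other member passed. The 95% interval of the log2 fold change lay wholly below 0.29, the median of the members at 5 dpf, for 49 of the 55 members, and had a median half-width of 0.18. Smaller differences were not detectable with 3 pools a group. The groups overlapped for 52 members, while every Mut library was above every WT library for 1, *cox6a2*, and below for 2, *COX5B* and *cox7a3*, against 15.3% and 17.3% of all genes.

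The library labelled WT1 was the highest WT library for 51 of the 55 members and WT2 the lowest for 50, and the same held for their totals. Averaged over all members, log2(value + 1) minus the WT mean was 0.03, 0.04 and 0.06 in Mut1, Mut2 and Mut3, and 0.11, -0.10 and -0.01 in WT1, WT2 and WT3. The Mut libraries thus lay inside the WT range. Without WT1 the members' median log2 fold change was 0.10 and without WT2 it was -0.02, and no member passed in either setting. Over all genes the calls were 357 higher and 477 lower without WT1, and 77 and 213 without WT2. The labels name no batch, and the split used here was read from the study's matrices before and after its batch removal. It put the libraries in 2 batches, Mut1, Mut2, WT1 and WT2 in the larger and Mut3 and WT3 in the smaller. The larger batch alone gave a median of 0.01 and no calls among the members, with 24 higher and 117 lower over all genes. The smaller batch holds 1 library of each genotype. Scaled to the same totals, 24 of the 55 members were positive, with a median of -0.01, against 40 in the values as deposited, so no direction is given to the members as a group at this age.

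In complex I at 8 dpf, *ndufa4l* had the highest log2 fold change, with values of 7666, 7281 and 7981 in Mut and 7718, 6529 and 6698 in WT (0.13, SE 0.09, adjusted p = 0.424). Its mammalian counterpart NDUFA4 is known as a subunit of complex IV. *ndufc2*, a membrane arm subunit, had the lowest, with values of 1413, 1318 and 1326 in Mut and 1619, 1344 and 1530 in WT (-0.14, SE 0.09, adjusted p = 0.382). In both genes the groups overlapped. The twin-cysteine subunits had log2 fold changes of 0.10 (*ndufs5*), 0.08 (*ndufb7*), 0.08 (*ndufb10*) and -0.02 (*ndufa8*). Among the core subunits, *ndufs8a* had -0.10 and *ndufv2* 0.07. *sdhb* of complex II had values of 5008, 5084 and 5439 in Mut and 5390, 4595 and 4653 in WT (0.09, SE 0.08, adjusted p = 0.593), and *sdhc* had 2170, 2076 and 2308 in Mut and 2319, 1949 and 1971 in WT (0.07, SE 0.09, adjusted p = 0.674). WT1 was within or above the Mut values of each, and WT2 and WT3 were below them.

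In complex III at 8 dpf, *uqcrb* had values of 786, 898 and 854 in Mut and 832, 757 and 786 in WT (0.09, SE 0.08, adjusted p = 0.555), and *uqcrfs1* had 4819, 4967 and 5124 in Mut and 5506, 4854 and 4975 in WT (-0.04, SE 0.07, adjusted p = 0.806). These are the highest and lowest of the complex, and both overlapped. In complex V, *atp5s* had values of 229, 259 and 217 in Mut and 201, 190 and 221 in WT (0.20, SE 0.13, adjusted p = 0.402), and *atp5l* had 7155, 7514 and 7261 in Mut and 8168, 6625 and 7486 in WT (-0.02, SE 0.09, adjusted p = 0.932).

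In complex IV at 8 dpf, *COX5B* again had every Mut library below every WT library. Its values were 751, 737 and 701 in Mut and 855, 839 and 905 in WT, a log2 fold change of -0.25 (SE 0.07, adjusted p = 0.102), which did not pass. The ratio of the *cox5b2* value to that of *COX5B* was 0.333, 0.350 and 0.324 in Mut and 0.306, 0.162 and 0.233 in WT, again higher in every Mut library. That of *cox5aa* to *cox5ab* was 2.56, 2.62 and 2.98 in Mut and 2.91, 2.82 and 2.49 in WT, which overlap at this age. *cox6a2* had values of 135, 265 and 164 in Mut and 89, 94 and 106 in WT (0.90, SE 0.25, adjusted p = 0.0831). All Mut libraries were above all WT libraries, and Mut2 stood far above Mut1 and Mut3. Mut2 was also the highest Mut library for each heart marker gene found at this age. Among the fast muscle genes it was the highest Mut library for *ckma*, *ckmb*, *tnnt3b*, *pvalb1* and *myhz2*. It was not the highest for *acta1b*, *atp2a1*, *pvalb2* and *actn3b*. A link of *cox6a2* to heart or muscle RNA was not tested. *cox6a2* is a member only through the study's own calls on these libraries, so its 8 dpf values are a description. Without a batch term in the model, *cox6a2* and *COX5B* each had an adjusted p under 0.05 (0.0496 and 0.0317). That fit leaves out a term the authors had already removed from the values, and over all genes it called 846 higher and 1485 lower in Mut, against 281 and 696.

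The further subunit genes and the assembly genes were near 0 at 8 dpf as well. None of the 37 further subunit genes passed in either direction, with a median of 0.04, and of the 52 assembly genes none rose and 1 fell, with a median of 0.02. The gene that fell was *foxred1*, an assembly factor of complex I, with values of 176, 153 and 172 in Mut and 295, 316 and 294 in WT (-0.85, adjusted p = 0.0133). Its groups did not overlap. The 9 fast muscle genes had a median log2 fold change of 0.35, and none passed. Their sums were 1449387 to 1649248 in Mut and 1011271 to 1428679 in WT, which do not overlap. The 2 slow muscle genes had a median of 0.40 and neither passed, with sums of 33238 to 36583 in Mut and 22969 to 31695 in WT, which do not overlap either. The 4 heart genes had a median of 0.63 and none passed, with sums of 953 to 3843 in Mut and 980 to 1459 in WT, which overlap. Of 4 retina genes 3 fell, of 8 liver genes 2 and of 4 intestine genes 1. None of the 11 exocrine pancreas genes passed, but all 11 had negative log2 fold changes, with a median of -1.20 at 8 dpf against -1.37 at 5 dpf, and their sums were 8924 to 26763 in Mut and 19027 to 59833 in WT, which overlap.

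The genotype effect differed between the ages for 5 of the 55 members, each with a lower log2 fold change at 8 than at 5 dpf, and for none in the other direction. Over the 20598 genes tested at both ages, 8.09% differed at this threshold, and 6.15% had a lower log2 fold change at 8 dpf, so the members' share was near that of all genes. The members' median difference was -0.27, against 0.02 over all genes, and 53 of the 55 differences were negative. The 5 members were *uqcrb* (-0.49), *uqcrc2b* (-0.42) and *uqcrfs1* (-0.42) of complex III, *cox7a3* (-0.48), and *ndufa10* (-0.41) of complex I, with adjusted p from 0.00847 to 0.0201 from the limma fits. They include 3 of the 4 members of complex III. The count was 12 with every library scaled to the same total and 0 with a single variance prior in place of the trend. Matching counts over all genes in these settings are not given here. The exceptions in sign were *cox6a2* (0.67, adjusted p = 0.192) and *COX5B* (0.10, adjusted p = 0.64). The 2 ages differ in feeding, in normalization and in the batch removal, and these cannot be told apart from age. Nor can the starvation that the study raises for the Mut larvae at 8 dpf.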

How the data were processed

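RNA-Seq libraries (stranded poly(A) preparation) came from pools of 5 whole larvae, 3 Mut and 3 WT at 5 dpf and at 8 dpf. Per the study's methods and the submitters' processing notes, the authors trimmed reads with Trimmomatic 0.33, aligned them with STAR 2.4.0a to GRCz10 and counted them per gene with featureCounts 1.4.5-p1, leaving out reads shared between genes and reads with more than a single alignment. The deposited 5 dpf values are scores, in which the authors scaled the counts between libraries and rounded them. The deposited 8 dpf scores also had a batch effect removed by the authors with removeBatchEffect of edgeR 3.16.5 on the log scale, and its gene set is limited to a combined mean of 5 or more. Rounding and scaling leave no raw depth, so the sums of values stand in for it and no counting interval is given.

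Genes at or above a combined mean of 5 were fitted per age with limma 3.58.1 in R 4.3.3 (lmFit, eBayes with a trend, two-sided) on log2(value + 1), with genotype as the term and, at 8 dpf, also batch. All adjusted p values are from limma, over all genes of an age. Since the values are not counts, limma replaced the DESeq2 test of the study. The labels give no batch per library, and the 2 batches were read from the study's matrices before and after batch removal, over 1526 genes. The difference between ages was tested per gene from both fits (Satterthwaite degrees of freedom). The fits were also run on simulated data in which genes varied independently, which does not cover genes that move together from pool to pool, as the members did. Summaries and plots used Python 3.11.15, pandas 2.3.3, numpy 2.4.6 and matplotlib 3.10.9.

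Members were assigned to complexes by symbol, which puts *ndufa4l* in complex I and *atp5s* in complex V. Further subunit, assembly and tissue marker genes were matched by symbol, 52 of 56 assembly symbols among them, through the study's tables or a reference table that pairs Ensembl identifiers with symbols. Members and lists were chosen with earlier results of these data known. All members could be named, but the values of 1 are not reported here, and it stays in the counts and medians. Full values were given for those with an adjusted p under 0.05, for the highest and lowest log2 fold change of a complex at each age, for 4 twin-cysteine subunits and for *cox6a2*. Further subunit and assembly genes named by value were chosen after their values were seen. Alternatives were pseudocounts, filters, scalings, the variance trend, the replicate number as a block, batch handling, thresholds, complex assignment and leaving out each library. Sequences were not used here.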

Additional observations from a re-analysis of the deposited data

Results flagged for a closer look

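For 5 of the 55 members the genotype effect differed between the ages by the test of the difference itself, each with a lower log2 fold change at 8 than at 5 dpf. Over all genes 8.09% differed, and 6.15% were lower at 8 dpf, so the members' share was near that of all genes. The count also depended on the processing, as given below. The log2 fold change of *uqcrb* was 0.09 at 8 dpf and 0.59 at 5 dpf, a difference of -0.49 (SE 0.12, adjusted p = 0.0173 from limma fits). *uqcrc2b* had 0.03 at 8 dpf and 0.45 at 5 dpf, a difference of -0.42 (SE 0.10, adjusted p = 0.00953). *uqcrfs1* had -0.04 at 8 dpf and 0.38 at 5 dpf, a difference of -0.42 (SE 0.11, adjusted p = 0.0172). All 3 are complex III subunits, and each had non-overlapping groups at 5 dpf only. For *cox7a3* the values were -0.15 at 8 dpf and 0.33 at 5 dpf, a difference of -0.48 (SE 0.11, adjusted p = 0.00847), and its Mut libraries were below all WT libraries at 8 dpf. For *ndufa10* they were -0.04 at 8 dpf and 0.37 at 5 dpf, a difference of -0.41 (SE 0.10, adjusted p = 0.0201). Age, feeding, normalization and batch removal differ together between these data sets and cannot be told apart. Starvation of the 8 dpf Mut larvae, which the study raises, cannot be told apart from these either.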

How the results depend on the processing

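The median log2 fold change of each complex at 5 dpf kept its direction and moved by less than the spread between replicates under every alternative run. The counts of members that passed moved more. At 5 dpf, 28 members were higher and 1 lower in Mut. The counts were 2 higher and 0 lower with eBayes without a trend, 2 higher and 0 lower with the replicate number as a block, and 0 higher and 0 lower with a log2 fold change of at least 0.9. Over all genes, 861 were higher and 489 lower in the main fit. These all-gene counts were 223 and 121 without a trend, and 380 and 236 with the block. Leaving out 1 library gave 2 to 32 higher and 0 to 1 lower. The sample labels give no pairing by replicate number. At 5 dpf the deviations of same-numbered libraries from their group means had correlations of -0.28, -0.19 and -0.10 over 17494 genes. No shared deviation was thus seen, which does not show that the pools are unpaired. At 8 dpf number 3 is the smaller batch, Mut3 and WT3, and batch removal sets this correlation for it. At 8 dpf no member passed under any alternative except without a batch term, which gave 1 higher and 1 lower. Several of these fits called few genes of any kind, so an absence of calls among the members shows little there. Over all 20963 genes, eBayes without a trend called 0 higher and 0 lower. The counts were 4 and 29 without Mut1, and 5 and 39 without Mut2. The complex III median at 8 dpf ranged from -0.0266 (without WT2) to 0.0712 (without WT1) with a library left out. The number of members with a lower log2 fold change at 8 than at 5 dpf was 5, and it was 3 with the replicate block, 12 with libraries scaled to the same total and 0 with eBayes without a trend. Counts of this difference over all genes under these alternatives are not given here. The cause of these shifts was not tested. With 3 pools a group, the median standard error of a member's log2 fold change was 0.08 at each age, which limits how small a difference can be seen.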

Other observations

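Among the further subunit genes, those with the most extreme log2 fold changes at 8 dpf are low and were chosen after their values were seen. *ndufa4l2b*, a copy related to *ndufa4l*, had values of 7, 143 and 9 in Mut and 6, 7 and 23 in WT, so that 1 library, Mut2, set its log2 fold change of 1.03 (SE 1.06, adjusted p = 0.625 from limma). The same library also had the highest value of *cox6a2*, 265, among the 8 dpf libraries. It was likewise the highest for the heart gene *cmlc1*, at 36, 1445 and 117 in Mut and 133, 54 and 164 in WT. So it was for the genes named *myh6*, with Mut values of 845, 1965 and 1247, and of 14, 289 and 45. For *myl7*, with 58, 144 and 107 in Mut and 281, 105 and 147 in WT, it was the highest Mut library only. Whether *cox6a2* followed the heart or muscle RNA of this library was not tested. *cox4i1l*, a copy related to *cox4i1*, had values of 39, 64 and 43 in Mut and 96, 65 and 92 in WT, a log2 fold change of -0.79 (SE 0.26, adjusted p = 0.134), with every Mut library below every WT library.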
